A study of Homo sapiens with 12 samples.

Results

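H3K4me1 ChIP-seq peaks of Huh7 cells, a line from a human hepatocellular carcinoma, were compared between lentiviral VPS72 overexpression and a lenti-HA control virus. The members are all peaks of the 2 libraries raised with the H3K4me1 antibody that lay on chromosomes 1 to 22 and X (hg19). The control list held 124449 and the overexpression list 155160, together 279609 of the 1553127 peaks in the 12 libraries of the series. Both groups carried a FLAG knock-in, a triple FLAG tag and a blasticidin resistance cassette placed by Cas9 at the end of the coding sequence of the cells' own VPS72. Cells were kept with virus for 24 h, and the overexpressed VPS72 was tagged with FLAG as well. Colonies were picked after selection, and the labels do not say whether both groups came from 1 colony. The genotype label of the overexpression library reads VPS77, while its title names VPS72, and the title was followed. Each group had 1 library, so the differences below have no replicate check and carry no p-value. They compare 2 libraries, and a difference between libraries cannot be told apart from one between conditions.

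H3K4me1, a single methyl group on lysine 4 of histone H3, is laid down mainly by the enzymes KMT2C and KMT2D. It marks enhancers and the flanks of active promoters, whose centres carry trimethylation instead. An enhancer with H3K4me1 alone is often called primed, and one that also has H3K27ac, acetylation of lysine 27 by p300 and CBP, is called active. VPS72, also named YL1, is the H2A.Z-binding subunit of the SRCAP and TIP60 complexes, which place the histone variant H2A.Z at such sites, and TIP60 acetylates it (H2A.Zac). The peak lists hold no expression values, so the labelled cell line was not checked against markers. No gene annotation of hg19 was used here, so regions are given by position and band, and a gene named beside a band is only a known resident of that band.

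The lists were compared at a common limit and at a common length. A deposited q of 0.05 or less, the peak caller's adjusted p, keeps 20108 control and 85651 overexpression regions, which cover 14.7 and 76.2 Mb. The q is adjusted within each list, and at this limit the weakest kept peak had 10 reads and a −log10 p of 4.40 in the control but 9 reads and 3.36 with overexpression. Lists of equal length were therefore also used, the 20000 regions of lowest q in each library. Height, as used here, is the read count of a summit over the library's genome average, so it is relative and cannot show a change shared by the whole genome. Recovered depth was similar, at 22.6 M (mega) reads in the control and 21.8 M with overexpression. The genome average was 1.79 reads in the control and 2.06 with overexpression, so summit reads alone overstate a ratio of overexpression to control height. The shortest peak, which follows the length to which reads were extended, was 214 bp in the control and 255 bp in the other library. The part of this longer extension in the results was not tested.

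The control H3K4me1 landscape was largely found again with overexpression, and much of the overexpression landscape lay below the calling limit in the control. With regions ranked by q into 10 classes, 97.3% of the strongest control class (Wilson 95% interval 96.5 to 97.9%) overlapped an overexpression region at a q of 0.05 or less. In the weakest class, 71.6% did. In the other direction, 58.8% of the strongest overexpression class met a control region at that q, although 93.9% met a control peak of any strength. In the weakest overexpression class these shares were 5.64% and 35.3%. Wilson intervals here and below cover counting error only.

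**Figure D1:**
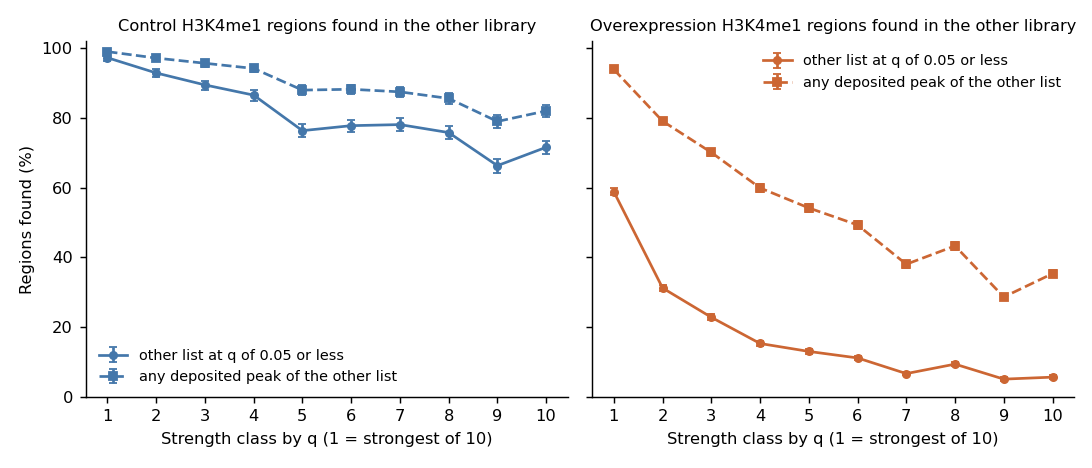
Percent of H3K4me1 regions (q of 0.05 or less) that overlapped by at least 1 bp a region of the other library, by strength class from 1 (strongest) to 10, for the control list (left) and the overexpression list (right). Solid lines count regions of the other library at a q of 0.05 or less, dashed lines any deposited peak, and bars are Wilson 95% intervals; the control curve starts at 97.3%, the overexpression curve at 58.8% and ends at 5.64%.

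The order of strength within the lists was less shared for H3K4me1 than for the acetyl marks of the same cells. It was also less shared than for H2A.Z among the 10000 and 5000 strongest, and about alike among the 1000 strongest. Of the 20000 strongest control regions, 48.4% (47.7 to 49.0%) overlapped one of the 20000 strongest overexpression regions, and 41.7% did in the other direction. The same lengths of list gave 82.7% and 85.7% for H3K27ac and 83.7% and 89.2% for H2A.Zac. Median heights of the 20000 control regions were 7.25 for H3K4me1, 13.4 for H3K27ac and 16.5 for H2A.Zac. The part of this difference in the overlaps was not tested. Among the 10000 strongest, H3K4me1 had 45.1% and 39.4% and H2A.Z 53.5% and 56.2%. For the 5000 strongest the shares were 41.3% and 36.7% for H3K4me1 and 46.1% and 47.6% for H2A.Z. Among the 1000 strongest, H3K4me1 had 32.8% and 30.2% and H2A.Z 29.3% in both directions.

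The strongest regions of each list show this difference in rank one by one. Regions in places with a local background of more than 2 times the genome average were left out of this choice. The 5 strongest control regions had similar heights in both libraries. At chr20:60928073-60930660 (20q13.33) the summit held 41 control and 43 overexpression reads, heights of 22.9 and 20.9. At chr19:19208180-19209537 (19p13.11) it held 41 and 51 reads, heights of 22.9 and 24.8. The other 3, at 19q13.11, 22q11.21 and 18q21.31, had ratios of 0.954, 0.873 and 1.18.

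The 5 strongest overexpression regions were all lower in the control. At chr2:101397584-101399435 (2q11.2) the summit held 19 reads in the control and 50 with overexpression, heights of 10.6 and 24.3. At chr7:1595237-1596390 (7p22.3) it held 20 and 46 reads, heights of 11.2 and 22.4. At chr12:57541058-57545591 (12q13.3, the band of the endocytic receptor gene LRP1) it held 21 and 41 reads, a ratio of 1.70. At chr3:133462013-133464628 (3q22.1, the band of TF, which encodes the liver plasma protein transferrin) it held 27 and 49 reads, a ratio of 1.58. At chr11:68890657-68892045 (11q13.3, the band of the cyclin D1 gene CCND1) it held 31 and 48 reads, a ratio of 1.35. H3K27ac at the same 5 regions was lower with overexpression, with heights of 36.3 and 30.3 at 2q11.2, 29.9 and 21.0 at 7p22.3, and 57.7 and 39.6 at 3q22.1, control first. That direction was general. Over 23123 control H3K27ac regions with a peak in both libraries the median ratio was 0.748, and 12.7% of ratios were above 1. These regions were chosen for their strength with overexpression, and their H3K4me1 ratios are a description.

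**Figure D2:**
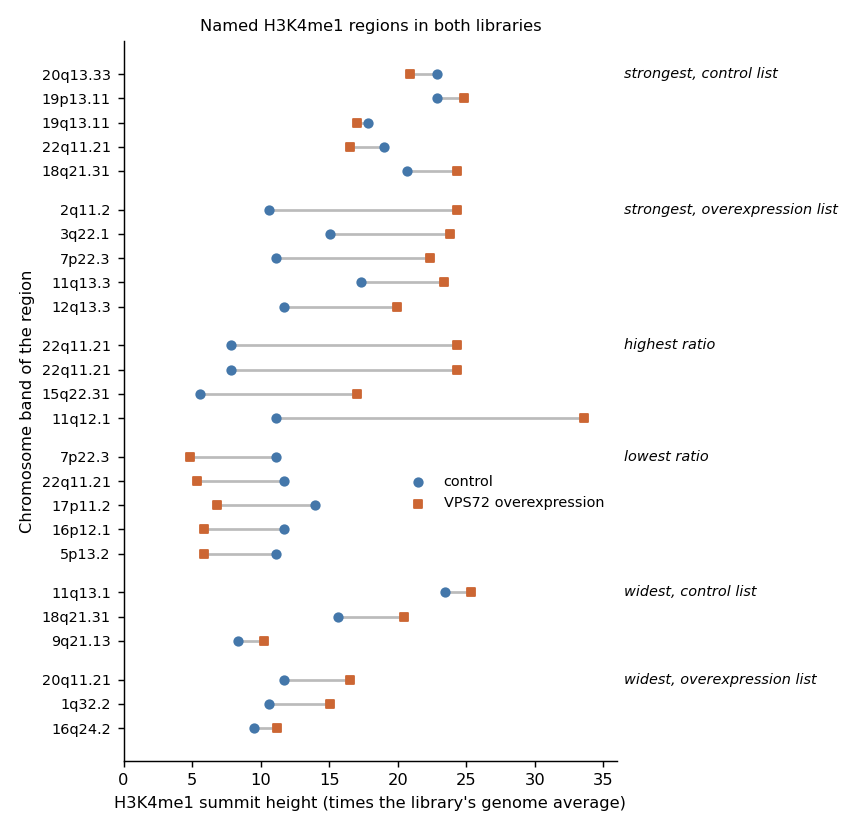
H3K4me1 summit height, in multiples of the library's genome average, of named regions in the control (circles) and with VPS72 overexpression (squares), grouped by the rule that chose them and labelled by chromosome band. The strongest overexpression regions sit between 10.6 and 17.3 in the control and between 19.95 and 24.3 with overexpression; the first 2 regions of the highest-ratio group share 1 overexpression peak.

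Over whole lists the height of H3K4me1 moved little. Of the 18031 control regions with an overexpression peak, the median ratio of overexpression to control height was 1.09 (95% interval of the median 1.09 to 1.10), and 62.3% were above 1. A ratio of at least 1.5 was found in 2067 of them, 11.5%, and a ratio of 1/1.5 or less in 903, 5.01%. When the overexpression list chose the regions, the median was 1.20 over 47276 regions, with 19.3% higher and 0.956% lower by that factor. The list that chooses favours its own library. Over one-to-one pairs of deposited peaks, chosen by neither list alone, the median was 1.12. Heights move in steps of whole reads. A peak has 1 summit, which in a wide peak can lie away from the summit of the other library. With summits within 250 bp of each other the median was 1.05 over 9573 control regions, and 1.13 over the 8458 with summits farther apart.

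Among regions of the control list, the H3K4me1 ratio was higher where H3K27ac was present than elsewhere. The median ratio was 1.21 at the 6032 on a control H3K27ac region and 1.03 at the 11999 without one. The order was the same on 23 of 23 chromosomes, which share the 2 libraries and the choice by the control list. Their medians were 1.11 to 1.27 with H3K27ac and 0.940 to 1.06 without. The order was also the same in all 5 strength classes of control H3K4me1. Medians ran from 1.16 against 0.975 in the strongest class to 1.31 against 1.05 in the weakest. Within regions on H3K27ac, the median ratio ran from 1.18 in the lowest of 5 classes of control H3K27ac height to 1.27 in the highest. With summits within 250 bp the medians were 1.19 and 0.964. H2A.Zac without H3K27ac went with a median of 1.05 (2584 regions), H3K27ac without H2A.Zac with 1.21 (2899 regions), both together with 1.21 and neither with 1.02.

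Both the size and the direction of this split depended on how regions were chosen. With the overexpression list choosing, the medians were 1.27 on control H3K27ac and 1.19 off it. Within 5 classes of overexpression strength the order turned in the strongest 2, to 1.36 with H3K27ac against 1.396 without and 1.22 against 1.26, and the medians were equal in the weaker 3. A choice that treats both libraries alike uses the 46317 one-to-one pairs of deposited peaks, classed by the geometric mean of both heights. There the medians were 1.22 with H3K27ac of either condition and 1.09 without, and the first was higher in all 5 classes, by 1.27 against 1.16 in the highest and 1.12 against 1.02 in the lowest.

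Regions chosen by another antibody were also compared, as far as both libraries had an H3K4me1 peak there. Of 27379 control H3K27ac regions, 10852 had an H3K4me1 peak in both libraries, 4944 with overexpression only and 755 in the control only. Where both were present, the median H3K4me1 ratio was 1.31, and 84.0% of ratios were above 1. The overexpression H3K27ac list gave 1.31 as well. Places of H2A.Zac gave 1.22 from either list, and places of H2A.Z gave 1.16. With H3K4me1 summits within 250 bp of each other, the control lists gave 1.26 for H3K27ac, 1.19 for H2A.Zac and 1.16 for H2A.Z.

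At these same places the acetyl marks were lower. At the 9138 control H3K27ac regions with values of both marks in both libraries, the median H3K27ac ratio was 0.748 (0.743 to 0.754) while that of H3K4me1 was 1.31. H3K27ac was lower and H3K4me1 higher at 74.1% of them, both were higher at 10.6%, and both were lower at 13.4%. At 10013 control H2A.Zac regions the medians were 0.648 for H2A.Zac and 1.22 for H3K4me1, with opposite directions of this kind at 72.04%. The sizes of the 2 ratios showed almost no relation from place to place. Spearman's rho across regions was 0.023 for H3K27ac and 0.00054 for H2A.Zac, over regions that share their libraries. For scale, of all regions with a peak in both conditions, 12.7% of control H3K27ac and 4.48% of control H2A.Zac had a ratio above 1. A height lower by a factor of 1.5 or more was found in 30.4% and 53.3% of them. H3K4me1 ratios were above 1 at 84.0% of control H3K27ac and 75.9% of control H2A.Zac regions with an H3K4me1 peak in both. Both shifts were thus general over these lists.

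**Figure D3:**
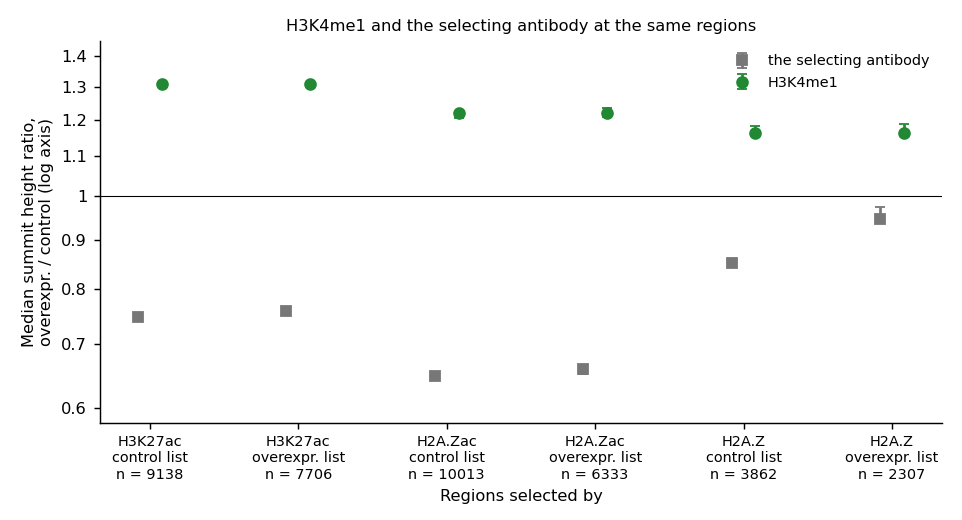
Median ratio of summit height, overexpression over control (log axis), of H3K4me1 (circles) and of the antibody that selected the regions (squares), at regions with peaks of both in both conditions; n is the number of regions and bars are 95% intervals of the median. H3K4me1 sits above 1 in all 6 sets, at 1.16 to 1.31, and the selecting antibody below 1, at 0.648 to 0.946.

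The extremes of the height ratio were taken from 5654 control regions in both lists with at least 20 reads at the higher summit. Both this limit and the choice by the size of the ratio favour large differences, so the regions are given as a description. At chr11:57271362-57274194 (11q12.1) the summit held 20 control and 69 overexpression reads, a ratio of 3.01, in a place of 2.87 times the average background and with no H3K27ac, H2A.Zac or H2A.Z peak. At chr15:67061280-67061534 (15q22.31) it held 10 and 35 reads, a ratio of 3.05, also with none of these marks. Another 2 regions of the 5 highest lay side by side in 22q11.21 under a single overexpression peak of 50 reads. In the control they held 14 reads each, a ratio of 3.12. Both had a control H3K27ac peak, with heights of 16.03 and 4.81. The overexpression peaks over the regions at 15q22.31, 22q11.21 and 11q12.1 were 5852, 6725 and 8061 bp wide, so their summits need not lie in the control region.

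The 5 lowest ratios lay near or below 0.5. At chr7:572683-573685 (7p22.3) the summit held 20 control and 10 overexpression reads, a ratio of 0.436. At chr17:20569058-20569495 (17p11.2) it held 25 and 14 reads, a ratio of 0.489. At chr16:25189830-25190222 (16p12.1) it held 21 and 12 reads, a ratio of 0.499, and H3K27ac heights there were 13.4 and 9.79. The other 2, at 22q11.21 and 5p13.2, had ratios of 0.457 and 0.523. Of the 5, 4 overlapped no control H3K27ac peak. In the whole control list, 30.5% of regions lay on a control H3K27ac region at a q of 0.05 or less, so most were off it too.

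All overexpression regions at a q of 0.05 or less fell into a graded series by what the control held at the same place. Of the 85651, 15338 (17.9%) overlapped a control region at a q of 0.05 or less, 31938 (37.3%) a weaker control peak, and 38375 (44.8%) no control peak. Median summit reads with overexpression were 16, 13 and 11 in this order, and median widths 1264, 814 and 481 bp. Regions without any control peak were thus weaker and narrower, with a median fold of 3.39 against 4.36 in the first class. They were also less often on the other marks of the control. In the 3 classes, 40.6, 19.8 and 8.44% lay on H3K27ac and 38.8, 25.4 and 15.9% on H2A.Zac. On H2A.Z the shares were 13.7, 9.98 and 7.33%. These control lists cover 1.08, 1.34 and 0.642% of the genome, in the same order of marks. Overlap counts from 1 bp and the classes differ in width, and the part of width in these shares was not tested.

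**Figure D4:**
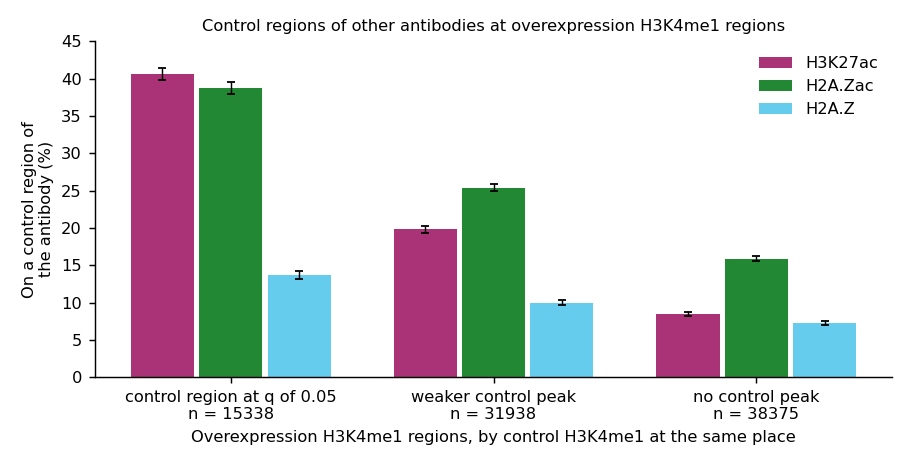
Percent of overexpression H3K4me1 regions that overlapped a control region (q of 0.05 or less) of H3K27ac, H2A.Zac or H2A.Z, in 3 classes set by control H3K4me1 at the same place; bars over columns are Wilson 95% intervals. The H3K27ac columns run from 40.6% to 8.44% across the classes and those of H2A.Zac from 38.8% to 15.9%. Median region widths of the classes were 1264, 814 and 481 bp.

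Regions without a control peak lay nearer to control H3K4me1 than the genome at large. Of them, 20.2% (19.8 to 20.7%) were within 5 kb of a control region, against 5.30% of the genome, and 6.74% against 1.64% were within 1 kb. Control regions themselves were closer together, with 47.8% within 5 kb of the next. The median distance of a region without a control peak was 29.8 kb, so most were not at the borders of control regions.

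The difference in the other marks was of like size in all classes and away from H3K4me1. Control H3K27ac under the 3 classes had median height ratios of 0.748, 0.745 and 0.746, and H3K27ac away from any overexpression H3K4me1 region had 0.753. H2A.Zac had 0.648, 0.643 and 0.645, and 0.659 away from it. H2A.Z had 0.852 in all 4 sets, a value that moves in steps of whole reads. All these regions were chosen by the control lists. With the overexpression lists choosing, the medians over all regions were 0.757 for H3K27ac and 0.652 for H2A.Zac, but 0.993 (0.983 to 1.004) for H2A.Z. The lower H2A.Z height thus depended on the list that chose.

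The 5 strongest regions without a control peak held 27 or 28 reads. At chr7:139950766-139952684 (7q34) the overexpression summit held 28 reads, a height of 13.6, and H3K27ac heights were 9.62 and 4.197, control first. At chr6:157950633-157951978 (6q25.3) it held 27 reads, and H3K27ac heights were 34.2 and 26.6. At chr3:35840383-35842378 (3p22.3) it held 27 reads, with H3K27ac heights of 39.5 and 31.2. All 5, with those at 4p16.3 and 2q32.2, had a deposited H3K27ac peak of any q in both libraries, as had 7.63% of all regions without a control peak. Some of these were weak, with 9 and 8 reads at 2q32.2. The control list names no peak there, and a place that failed to reach the limit of the list, a p of 0.05, has no value.

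Control regions without an overexpression peak were fewer and had less of the other marks. They numbered 2077, or 10.3% of the control list. Their median width was 328 bp and their median summit 11 reads, against 643 bp and 13 reads for those found again. Only 4.43% (3.63 to 5.40%) lay on control H3K27ac, against 33.5% (32.8 to 34.1%) of those found again, and 12.6% against 31.7% lay on H2A.Zac. The part of their smaller width in these shares was not tested. The strongest with a background of up to 2 were chr2:147855987-147856356 (2q22.3), with 20 reads in the control, and chr19:19313089-19313439 (19p13.11), with 22. The first had no H3K27ac, H2A.Zac or H2A.Z peak, and the second had a control H2A.Zac height of 37.6.

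Single regions were wider with overexpression, also after the shortest peak, which follows read extension, was subtracted. With it subtracted in each library, the median width was 386 bp in the control and 423 bp with overexpression over all regions, and 386 and 997 bp over the 20000 strongest. At 12534 one-to-one pairs the medians were 422 and 958 bp, and 82.6% of pairs were wider with overexpression. Summits of a pair lay a median of 192 bp apart. Of the 85651 overexpression regions, 1488 joined 2 or more control regions, up to 6, or 9.70% of those that met any. Of the 20108 control regions, 752 were split over 2 or more overexpression regions, or 4.60% of those that met any. The lists differ in length, so these counts do not weigh joining against splitting. A width is set by how far the signal stays above the calling limit, so it moves with strength and with the limit.

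The widest regions of the control list did not all widen. The widest, chr11:65846022-65852127 (11q13.1), was 6106 bp in the control and 6693 bp with overexpression, in a place of 4.69 times the average background. The next, at 18q21.31, was 5622 and 5695 bp, and the third, at 9q21.13, was 5491 and 2063 bp. The widest with overexpression, chr20:30294854-30307718 (20q11.21, the band of the apoptosis inhibitor gene BCL2L1), was 12865 bp. It held 21 and 34 reads, H3K4me1 heights of 11.7 and 16.5, while H3K27ac heights were 59.9 and 45.7. It lay within the longest control domain, chr20:30280202-30316112, which was stitched from 12 regions with gaps of up to 5 kb. In the lists of 20000 regions, 26 of 14109 control domains and 66 of 14000 overexpression domains were at least 20 kb long, and 17 of each met one of the other. The regions stitched cover 14.7 Mb in the control and 30.1 Mb with overexpression, and the part of their width in these numbers was not tested. The longest domains were 35.9 and 50.03 kb, the second at chr19:39144791-39194820 (19q13.2). Its highest summit held 22 and 32 reads, a height ratio of 1.27.

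Most H2A.Zac summits had none of the 20000 strongest H3K4me1 regions near them, but with overexpression this depended on the length of the list. In both conditions, coverage by these regions was lower on the strongest summits than 1 kb away, and on the weakest summits it was higher than 1 kb away. Control H2A.Zac summits were ranked by q into 5 classes. In the strongest class, 1.73% (1.47 to 2.04%) lay inside one of the 20000 strongest control H3K4me1 regions and 3.03% (2.68 to 3.43%) inside one with overexpression. At 1 kb to either side the shares were 3.29% and 5.53%. No such region lay within 2 kb of 84.96% of these summits in the control and 83.1% with overexpression, and 1.41% and 1.76% had one on both flanks but not on the summit. From class 3 on the order was turned, with 8.61% on the summit and 6.67% at 1 kb in the control, and 15.7% and 13.5% with overexpression. In class 4 the shares were 10.95% on the summit and 7.04% at 1 kb in the control, and 19.0% and 14.8% with overexpression. Within 2 kb, 70.8% and 66.3% of class 4 had none. With all overexpression regions at a q of 0.05 or less, 31.1% to 43.2% of each class had none within 2 kb. Of the strongest class, 14.9% then had one on both flanks but not on the summit. The dip at strong summits was kept while shares were higher at all distances plotted with overexpression, where the 20000 regions cover 30.1 Mb against 14.7 Mb in the control. Strong H3K27ac summits gave a like dip, 3.40% on the summit and 7.08% at 1 kb in the control and 5.88% and 12.46% with overexpression. The strongest class of control FLAG summits, from the antibody to the tag on VPS72, had 2.05% on the summit and 0.917% at 1 kb in the control, and 2.13% and 1.55% with overexpression. At 5 kb the shares were 1.14% and 1.91%. Of control FLAG regions at a q of 0.05 or less, 56.0% lay in places of more than 2 times the average background.

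**Figure D5:**
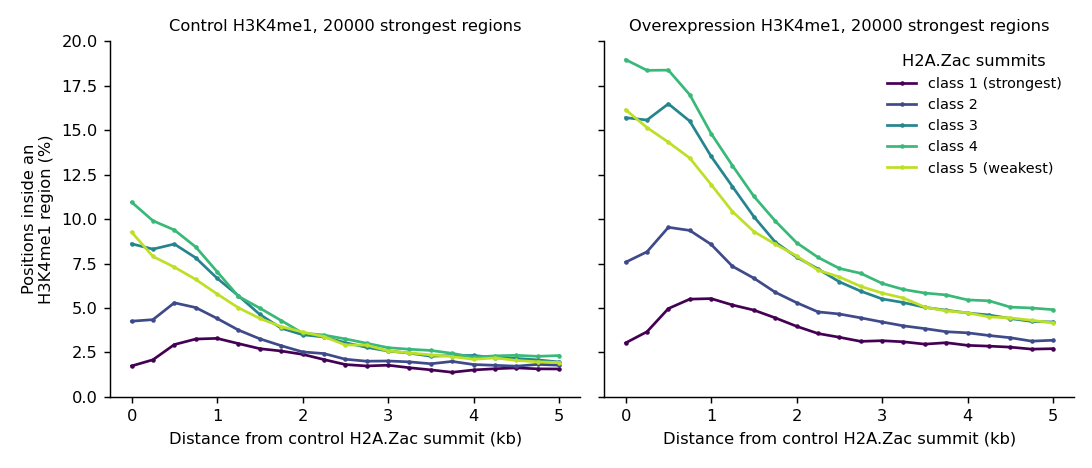
Percent of positions at each distance (kb, both sides averaged) from control H2A.Zac summits that lay inside one of the 20000 strongest H3K4me1 regions of the control (left) or of VPS72 overexpression (right), by H2A.Zac strength class, 1 (strongest) to 5. Class 1 dips on the summit in both, 1.73% against 3.29% at 1 kb in the control and 3.03% against 5.53% with overexpression, and classes 3 to 5 are highest on or near the summit.

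The share of H3K4me1 regions on H2A.Zac and H2A.Z was lower with overexpression, where these lists were shorter, and that on H3K27ac was higher although its list was shorter too. Of the 20000 strongest, 30.5% (29.9 to 31.2%) overlapped an H3K27ac region of the same condition in the control and 33.3% (32.6 to 33.9%) with overexpression. For H2A.Zac the shares were 29.8% and 20.3%, and for H2A.Z 10.7% and 6.47%. The partner lists went from 40081 to 28331 regions for H2A.Zac and from 27379 to 23861 for H3K27ac. With partner lists of equal length too, the shares were 23.8% and 29.3% for H3K27ac, 13.5% and 13.6% for H2A.Zac, and 6.53% and 6.43% for H2A.Z. With the control partner lists in both conditions, the overexpression shares were 40.4, 38.1 and 12.8%. The H3K27ac share was higher in all 3 of these comparisons. The 20000 overexpression regions are wider, with a median of 1252 against 600 bp, and 1 shared bp counts as overlap. The part of this width in the shares was not tested.

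Across chromosomes H3K4me1 kept its distribution. Densities of the 20000 strongest regions in 747 bands of at least 1 Mb had a Pearson r of 0.959 and a Spearman rho of 0.957 between libraries, given as a description of bands that share copy number and gene density. Chromosome 20 had 15.4 and 12.7 regions per Mb, chromosome 19 had 15.1 and 14.1, and chromosome X had 0.985 and 0.895, control first. The densest band was 11q13.2 in both, with 70.0 and 62.0 regions per Mb, and its local background was 4.30 and 4.40 times the average. The band 22q11.21 had 46.5 and 37.0. Among the longest bands without any such region in both libraries, 7q21.11, 4q28.3, 3q26.1 and Xp21.1 are of the darkest Giemsa stain, which marks gene-poor chromatin, and 3p14.1 is of a medium stain. The darkest bands held 5.96% of control and 6.35% of overexpression regions and make up 16.4% of the sequence.

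Weaker overexpression regions reached further into these dark bands. Over all overexpression regions at a q of 0.05 or less the share was 8.62% (8.44 to 8.81%), against 5.95% (5.63 to 6.29%) in the control list. The 7q21.11 band, with no control region, held 7, and 3q26.1 held 13. Unstained bands, in turn, held 55.3% of the overexpression and 58.6% of the control regions at that q and make up 42.4% of the sequence.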

How the data were processed

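Peaks had been called by the authors on single libraries with MACS2, per the peak names and the submitters' processing notes. FastQC, Trimmomatic and BWA appear in these notes, with no version. Which control and cut-offs served in calling is not given in the sources used here. For each peak, the authors' deposited fold is a ratio of summit to local background, their deposited p and q are −log10 values, and their integer score follows from the −log10 p. The lists held peaks up to a p of 0.05. Peak names in the control file read H3k3me1. Its title and antibody label say H3K4me1, and these were followed. Both hg19 and hg38 are named in the notes. No peak on any of 23 chromosomes ran past its hg19 length, so positions are hg19, 1-based, with bands from circlize 0.4.16. The gene, promoter and miRNA tables at hand are of GRCh38 and were not used.

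The reads under every summit were worked back to whole numbers from fold and −log10 p with the Poisson model of MACS2, at a relative tolerance of 0.002. This succeeded for at least 99.9995% of peaks of each ChIP library and was tested on simulated data. Depth assumes a genome of 2.7 Gb. Overlap means at least 1 bp. The background of a place is the peak caller's expected count divided by the genome average. Named regions were the 5 strongest per list with a background of up to 2, the 5 strongest without a peak in the other library, the 5 highest and lowest height ratios with at least 20 reads, the 3 widest regions and longest domains, and the 5 densest and emptiest bands; some are given by band or left out, and 1 is not reported here. Members, lists and rules were chosen with earlier results of these data known. Groups have 1 library each, so no test was run. Splits of the height ratio by other marks were added after the data were seen. FLAG lists served only where named, and input lists were not used. Software was R 4.3.3 and Python 3.11.15 with matplotlib 3.10.9, scipy 1.17.1, pandas 2.3.3 and numpy 2.4.6.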

Additional observations from a re-analysis of the deposited data

How the results depend on the processing

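No paired analysis was possible because each group had 1 library. The ratio of region numbers, 4.26 at a q of 0.05, was 1.25 over all deposited peaks, 8.55 at a q of 0.01 and 16.8 at a q of 1e-05, and limits chosen after seeing the data gave 1.82 at a p of 0.001 and 2.45 at a p of 0.0001 in both lists. The overlap of equally long lists, 48.4%, was 44.6% ranked by fold, 41.3% for 5000 and 45.1% for 10000 regions, and 46.5% when at least 50% of the shorter region had to overlap. The height ratio, 1.09, was 1.20 with the overexpression list choosing 1.05 for the deposited fold and, chosen after seeing the data, 1.05 with summits within 250 bp. The width ratio, 1.10, was 2.58 for equally long lists and 1.13 with nothing subtracted. The ratio of long domains, 2.54, was 1.47 with the widest gap tried and 23.3 for lists at a q of 0.05; gaps of up to 1 kb left 0 control domains and no ratio.

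Differences in share on other marks, overexpression minus control in percentage points, reversed in 4 cases. For H3K27ac, 2.74 became -16.0 at a q of 0.05, 9.82 with control partners and 5.50 with partner lists of equal length. For H2A.Zac, -9.49 became -17.1, 8.31 and 0.085 in this order, and for H2A.Z, -4.26 became -5.58, 2.06 and -0.10. The list at a q of 0.05 holds 4.26 times as many regions with overexpression as in the control. The rise in coverage from H2A.Zac summits to 1 kb with overexpression, 2.50 points, was 8.72 at a q of 0.05. Regions without a control peak lay within 1 kb of control regions in 6.74% and within 20 kb in 42.1% of cases. Height ratios of H3K27ac, H2A.Zac and H2A.Z there, 0.746, 0.645 and 0.852, were 0.801, 0.699 and 0.923 by deposited fold. The difference in the darkest bands, 0.395 points, was 2.67 at a q of 0.05. The cause was not tested where none is given. The other 7 of 39 alternatives kept direction and size. With 10 to 20 reads at most summits, a height of 1 region is known only to within a few reads.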
